A study of Homo sapiens with 12 samples.

Results

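The genes described here are those of the unfolded protein response and of the machinery that moves, folds and checks proteins in the endoplasmic reticulum (ER) of MM.1S cells. MM.1S is a human multiple myeloma line, that is, a line of malignant plasma cells. The 45 genes were listed by name for their role, and 43 of them had a row among the 17710 genes on the arrays. TXNDC5 and SPCS2 were not analysed here. RNA from 12 cultures was hybridized to Clariom S arrays, 1 culture per group in each of 3 independent experiments. Arrays of the same replicate number were taken as 1 experiment, which the labels do not state. The Control cultures were untreated, and the labels give no culture time for them. The PIM cultures received 100 nM of PIM447, an inhibitor of the PIM kinases, for 24 h. The Pd cultures received 200 nM of pomalidomide, a drug that redirects the cereblon ubiquitin ligase, with 5 nM of dexamethasone, a glucocorticoid, for 15 h. The PIM-Pd cultures received all 3 drugs at these doses for 10 h. All treatments were sub-lethal per the labels. Since each group had its own exposure time, drug and time cannot be told apart in any comparison below, and the single cell line does not stand for other myeloma cells.

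A plasma cell exports antibody in bulk, and its ER is built for that load. Nascent chains enter through the SEC61 translocon, lose their signal peptide, receive N-linked glycans, and are folded by chaperones and disulfide isomerases. Chains that fail are extracted and degraded, a route called ER-associated degradation (ERAD). When unfolded chains pile up, the sensors ERN1 (IRE1), EIF2AK3 (PERK) and ATF6 signal to the nucleus, and XBP1 and ATF6 then raise chaperone and ERAD genes by binding short DNA elements in their promoters.

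Of these elements, the ER stress element ERSE (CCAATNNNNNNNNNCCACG, where N is any base) and its relative ERSE-II (ATTGGNCCACG) were searched for on both strands of the 250 bases before each annotated transcription start (RefSeq, GRCh38.p14). A promoter was found for 39 of the 43 genes. PDIA3, RPN1, SEC24D and SPCS1 had none in the table used. ERSE was in 0.074% of all 35116 promoters and in those of 8 of the 39 genes, namely CALR, CANX, CRELD2, ERO1B, HSP90B1, HSPA5, PDIA6 and XBP1. ERSE-II was in 0.0513% of promoters and in those of HERPUD1, HYOU1 and SDF2L1. The core of a further XBP1 element, UPRE (TGACGTGG), was in 0.612% of promoters and in those of HYOU1, SSR3 and SSR4, and in HYOU1 it overlapped an ERSE-II match. The percentages count promoters, whereas a gene was counted if any of its annotated promoters held the element, and some genes had several. The 2 kinds of share are therefore not in like units. A letter match is a description of the sequence and not a measured binding site. Only exact matches within these 250 bases were counted, so the lack of a match does not show that a promoter lacks the element. The promoters of 4 genes are printed 5′ to 3′ with the fixed letters of each match in capitals: HSPA5 as the textbook stress target, HSP90B1 and HERPUD1 as element-bearing genes that moved in opposite directions after Pd, and SEL1L as the ERAD gene that fell most, in which neither element was found.
HSPA5, chr9:125241344-125241593, minus strand: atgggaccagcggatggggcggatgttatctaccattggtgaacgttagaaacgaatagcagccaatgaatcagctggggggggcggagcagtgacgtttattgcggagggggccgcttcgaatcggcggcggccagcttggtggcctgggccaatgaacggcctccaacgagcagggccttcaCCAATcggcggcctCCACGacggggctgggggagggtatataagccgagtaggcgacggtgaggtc
HSP90B1, chr12:103930160-103930409, plus strand: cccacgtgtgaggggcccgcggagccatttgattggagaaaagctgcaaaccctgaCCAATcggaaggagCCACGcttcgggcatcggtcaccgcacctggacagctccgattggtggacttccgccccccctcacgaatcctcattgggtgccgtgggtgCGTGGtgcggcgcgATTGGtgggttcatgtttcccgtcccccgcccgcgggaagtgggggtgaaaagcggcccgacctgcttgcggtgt
HERPUD1, chr16:56931892-56932141, plus strand: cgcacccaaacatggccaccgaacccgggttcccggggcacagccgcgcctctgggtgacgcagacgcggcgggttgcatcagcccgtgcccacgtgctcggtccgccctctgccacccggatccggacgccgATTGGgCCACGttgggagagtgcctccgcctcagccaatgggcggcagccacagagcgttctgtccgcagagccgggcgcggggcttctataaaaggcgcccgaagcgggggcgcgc
SEL1L, chr14:81533854-81534103, minus strand: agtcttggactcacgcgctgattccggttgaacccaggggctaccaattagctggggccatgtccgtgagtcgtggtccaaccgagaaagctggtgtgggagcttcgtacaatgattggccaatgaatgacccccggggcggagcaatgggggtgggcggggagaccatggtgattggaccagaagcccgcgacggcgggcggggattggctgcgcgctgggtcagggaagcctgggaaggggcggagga

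No measure of RNA or hybridization quality was used here. Median log2 levels of the arrays ran from 4.81 to 4.89. Arrays of the same group correlated with each other at r between 0.987 and 0.993 over all genes. PIM arrays 1 and 2 and PIM-Pd array 1, all from cultures given PIM447, had the highest medians and the narrowest spread of levels. Each result is therefore also given without these 3 arrays where that changed it. XBP1 stood at or above percentile 99.0 of all genes on each array and MZB1, a plasma cell ER cochaperone, at or above percentile 95.7. Other plasma cell markers, and markers of other cell types, were not analysed here. All levels below are RMA values on the log2 scale, in which a difference of 1 is a 2-fold change, and they are compared only within a gene. A gene was called changed when its Benjamini-Hochberg adjusted p over all 17710 genes was below 0.05 in limma.

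With all 12 arrays, no comparison showed a 2-fold change in any of the 43 genes. The nearest was CREB3L2 in PIM-Pd against Control, at 0.96, which came to 1.11 without Control 2, 1.01 without Control 3 and 1.05 without PIM-Pd 1 or without the 3 arrays of highest median. Pomalidomide with dexamethasone, with or without PIM447, was accompanied by higher CREB3L2 and HERPUD1 and lower SEL1L, whereas XBP1, HSPA5 and most of the chaperones and translocation genes passed no test. After Pd, 2 genes rose and 4 fell, against 3.48% of all genes that rose and 1.94% that fell (5.42% in either direction). After PIM-Pd, 4 rose and 2 fell, against 4.42% and 5.02% (9.44% in either direction). The shares of the 43 genes that passed, about 14.0% in both comparisons, rest on 6 genes each and these 2 comparisons share their Control arrays. Of the 43 genes, 42 had a mean level above the median of all genes, whereas the shares of all genes, here and below, include genes at low levels. These shares are therefore not from genes of like level. Whether the 43 genes passed more often than other genes of like level was not tested. After PIM447 alone 0 of the 43 genes passed, and 0 of all genes did (0% called). At an unadjusted p below 0.05, 2 of the 43 genes and 1098 of all genes differed between PIM and Control. Since the arrays measured RNA of whole cultures, a lower level per cell and a smaller share of cells that express the gene cannot be told apart.

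**Figure D1:**
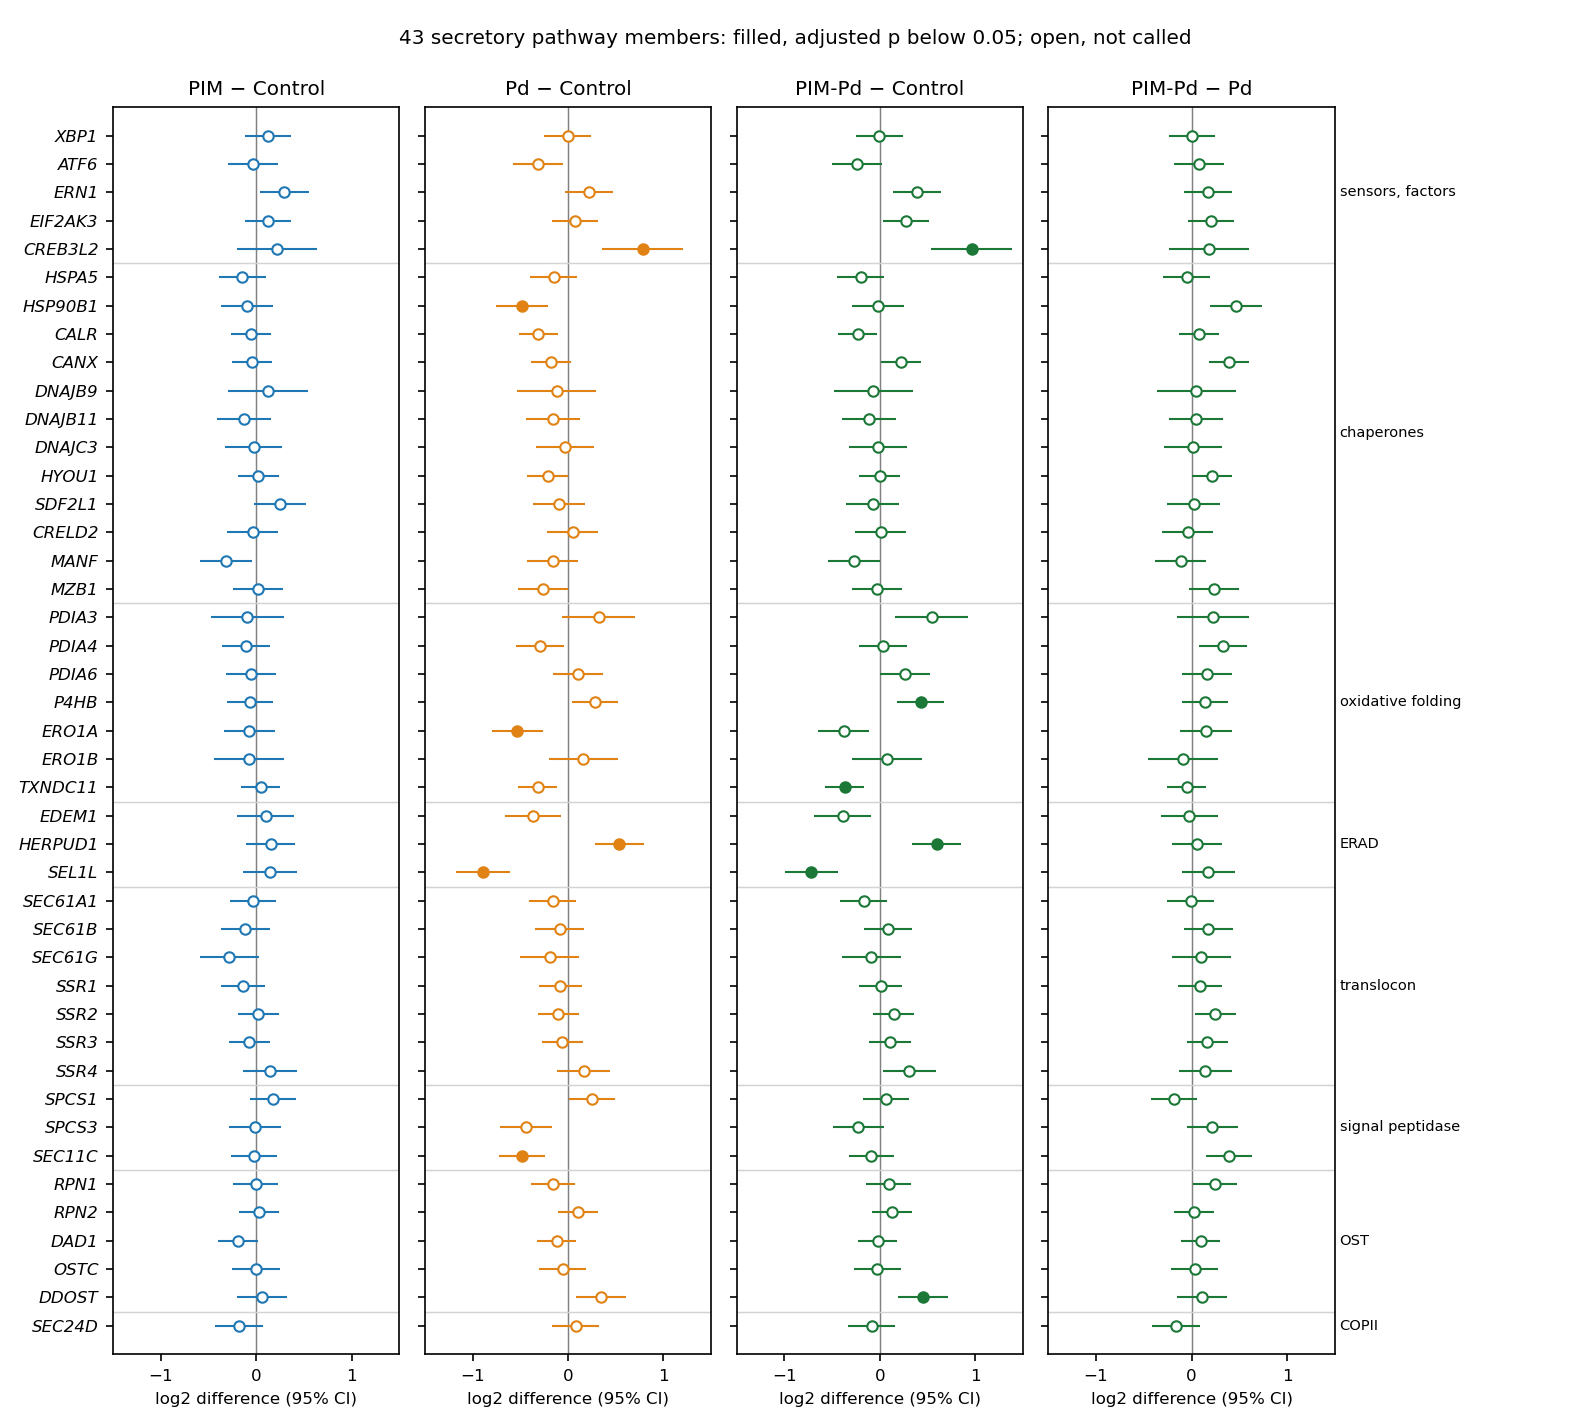
Difference in log2 level between groups for each of the 43 genes (rows, ordered by role), with its 95% confidence interval from limma on the x axis; n = 3 arrays per group. Filled points passed the adjusted p threshold of 0.05 and open points did not: 0 genes for PIM, 6 for Pd, 6 for PIM-Pd, and 0 for PIM-Pd against Pd. CREB3L2, HERPUD1 and SEL1L are filled in the Pd and PIM-Pd panels against Control.

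SEL1L (ENSG00000071537_at) showed the largest fall of the 43 genes. Its product is the scaffold that holds the ERAD ubiquitin ligase complex together at the ER membrane. The SEL1L level in the 3 Control arrays was 10.59, 10.29 and 10.24, and in the PIM arrays 10.74, 10.47 and 10.34. It was 9.60, 9.35 and 9.49 in the Pd arrays and 9.63, 9.60 and 9.74 in the PIM-Pd arrays. Each of the 6 arrays with pomalidomide and dexamethasone thus lay below each of the 6 arrays without. SEL1L fell by 0.89 ± 0.13 (SE) after Pd (1.86-fold, adjusted p = 8.1307e-04) and by 0.72 ± 0.13 after PIM-Pd (1.64-fold, adjusted p = 0.00298). The fall was present in all 3 experiments, at -0.99, -0.94 and -0.75 for Pd and at -0.96, -0.69 and -0.50 for PIM-Pd. Both calls held under all 19 alternative settings, with adjusted p at most 0.00610 for Pd and 0.0179 for PIM-Pd. Here and below, these 19 leave out the 2-fold criterion, which neither SEL1L difference met.

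HERPUD1 (ENSG00000051108_at) encodes a small ER membrane protein that recruits factors to the same ligase complex, and it moved the other way. Its level was 11.24, 11.02 and 11.04 in Control, 11.44, 11.17 and 11.15 in PIM, 11.60, 11.66 and 11.65 in Pd, and 11.84, 11.51 and 11.75 in PIM-Pd. Control and PIM arrays overlapped, and the Pd and PIM-Pd arrays were all above both. HERPUD1 rose by 0.54 ± 0.12 after Pd (1.45-fold, adjusted p = 0.0167) and by 0.60 ± 0.12 after PIM-Pd (1.51-fold, adjusted p = 0.00552). The PIM-Pd call held under all 19 alternatives. The Pd call was lost when any Pd array, Control 2 or Control 3 was left out, with adjusted p up to 0.0730. EDEM1, a lectin that hands misfolded glycoproteins to ERAD, was the other member of this group. The EDEM1 difference was -0.37 ± 0.14 for Pd (adjusted p = 0.165) and -0.39 ± 0.14 for PIM-Pd (adjusted p = 0.103), without overlap between treated and Control arrays. Without the 3 arrays of highest median the PIM-Pd value for EDEM1 was -0.50 with an adjusted p of 0.0291. Of the 3 ERAD genes, then, 1 rose, 1 fell and 1 did not pass, in both comparisons.

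**Figure D2:**
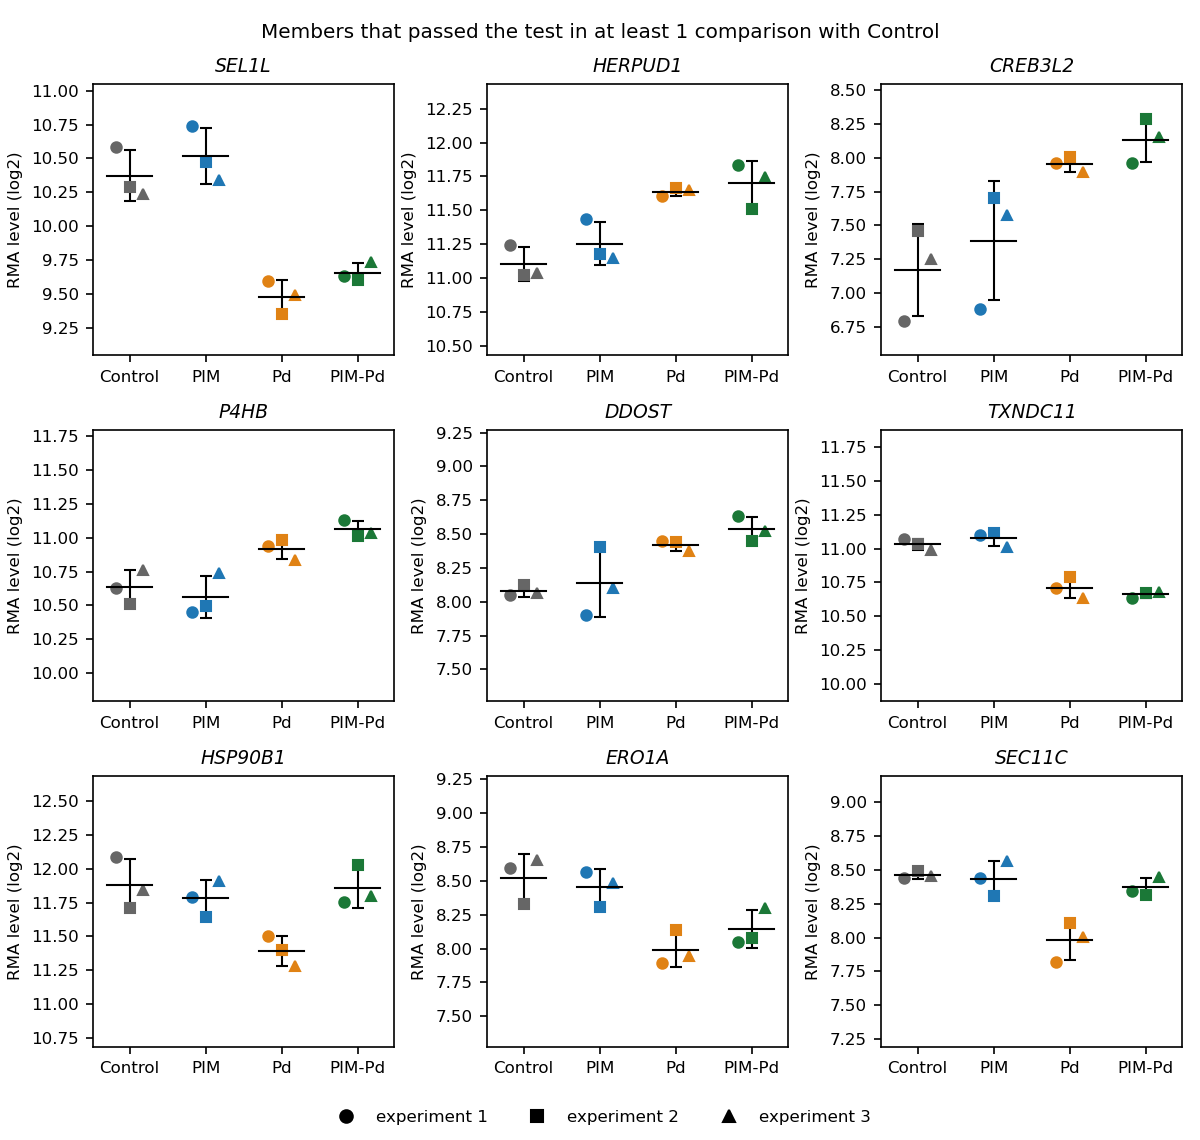
RMA level (log2, y axis) on each array for the 9 genes that passed the test in Pd or PIM-Pd against Control; x axis, treatment group; marker shape, experiment; bar and whiskers, mean ± SD of 3 arrays. Each panel spans 2 log2 units. SEL1L and TXNDC11 lie lower and HERPUD1 and CREB3L2 higher in both Pd and PIM-Pd, while HSP90B1 and SEC11C lie lower in Pd with PIM-Pd arrays near Control.

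Among the 5 stress sensors and transcription factors, 1 passed. CREB3L2 (ENSG00000182158_at) encodes an ER-anchored transcription factor that is cut in the Golgi and raises genes of the secretory pathway. The CREB3L2 level was 6.80, 7.46 and 7.25 in Control and 6.88, 7.70 and 7.58 in PIM. It was 7.96, 8.003 and 7.89 in Pd and 7.96, 8.29 and 8.16 in PIM-Pd, above every array without pomalidomide and dexamethasone. Array 1 was the lowest in both Control and PIM, and these groups had the larger spread (SD 0.34 and 0.44, against 0.05 and 0.16). CREB3L2 rose by 0.78 ± 0.20 after Pd (1.72-fold, adjusted p = 0.0322) and by 0.96 ± 0.20 after PIM-Pd (1.95-fold, adjusted p = 0.00586), the largest rise of the 43 genes. The PIM-Pd call held under all 19 alternatives, whereas the Pd call was lost without Control 1 (0.60, adjusted p = 0.160), without Control 3 and without each Pd array.

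XBP1, the factor that drives much of this program and whose mRNA is spliced by IRE1, passed in no comparison. The XBP1 level was 10.48, 10.61 and 10.54 in Control, 10.64, 10.79 and 10.57 in PIM, 10.45, 10.67 and 10.50 in Pd, and 10.57, 10.66 and 10.39 in PIM-Pd. The 4 groups overlapped, and the 95% interval of the XBP1 difference from Control was -0.25 to 0.24 for Pd and for PIM-Pd. These are levels of the whole gene, so spliced and unspliced XBP1 mRNA were not separated. ATF6, whose cleaved form is another such factor, was at 9.53, 9.24 and 9.31 in Control, 9.51, 9.12 and 9.36 in PIM, 9.01, 9.08 and 9.04 in Pd, and 9.05, 9.24 and 9.08 in PIM-Pd. The ATF6 arrays of Pd were all below those of Control, but the difference of -0.32 ± 0.12 had an adjusted p of 0.179.

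The other sensors are kinases in the ER membrane. ERN1, which encodes the kinase and RNase IRE1, was at 9.59, 9.57 and 9.38 in Control, 9.91, 9.93 and 9.59 in PIM, 9.80, 9.68 and 9.72 in Pd, and 10.01, 9.84 and 9.87 in PIM-Pd. Only the PIM arrays overlapped with Control. The ERN1 difference was 0.39 ± 0.12 for PIM-Pd, positive in 3 of 3 experiments, with an adjusted p of 0.0520, and of 0.0355 with the experiment as a block. For PIM alone it was 0.29 ± 0.12, the largest positive value of the 43 genes, with an unadjusted p of 0.0253 and an adjusted p of 0.761. Within the 3 experiments the ERN1 difference for PIM was 0.32, 0.36 and 0.21. It was 0.07 without PIM 1, PIM 2 and PIM-Pd 1, the 3 arrays of highest median. That fit sets PIM 3 alone against all 3 Control arrays. EIF2AK3, the kinase PERK that slows translation under ER stress, was at 8.25, 8.20 and 8.14 in Control, 8.36, 8.28 and 8.32 in PIM, 8.34, 8.12 and 8.34 in Pd, and 8.56, 8.28 and 8.57 in PIM-Pd. The EIF2AK3 difference was 0.27 ± 0.11 for PIM-Pd (adjusted p = 0.172) and 0.07 ± 0.11 for Pd.

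**Figure D3:**
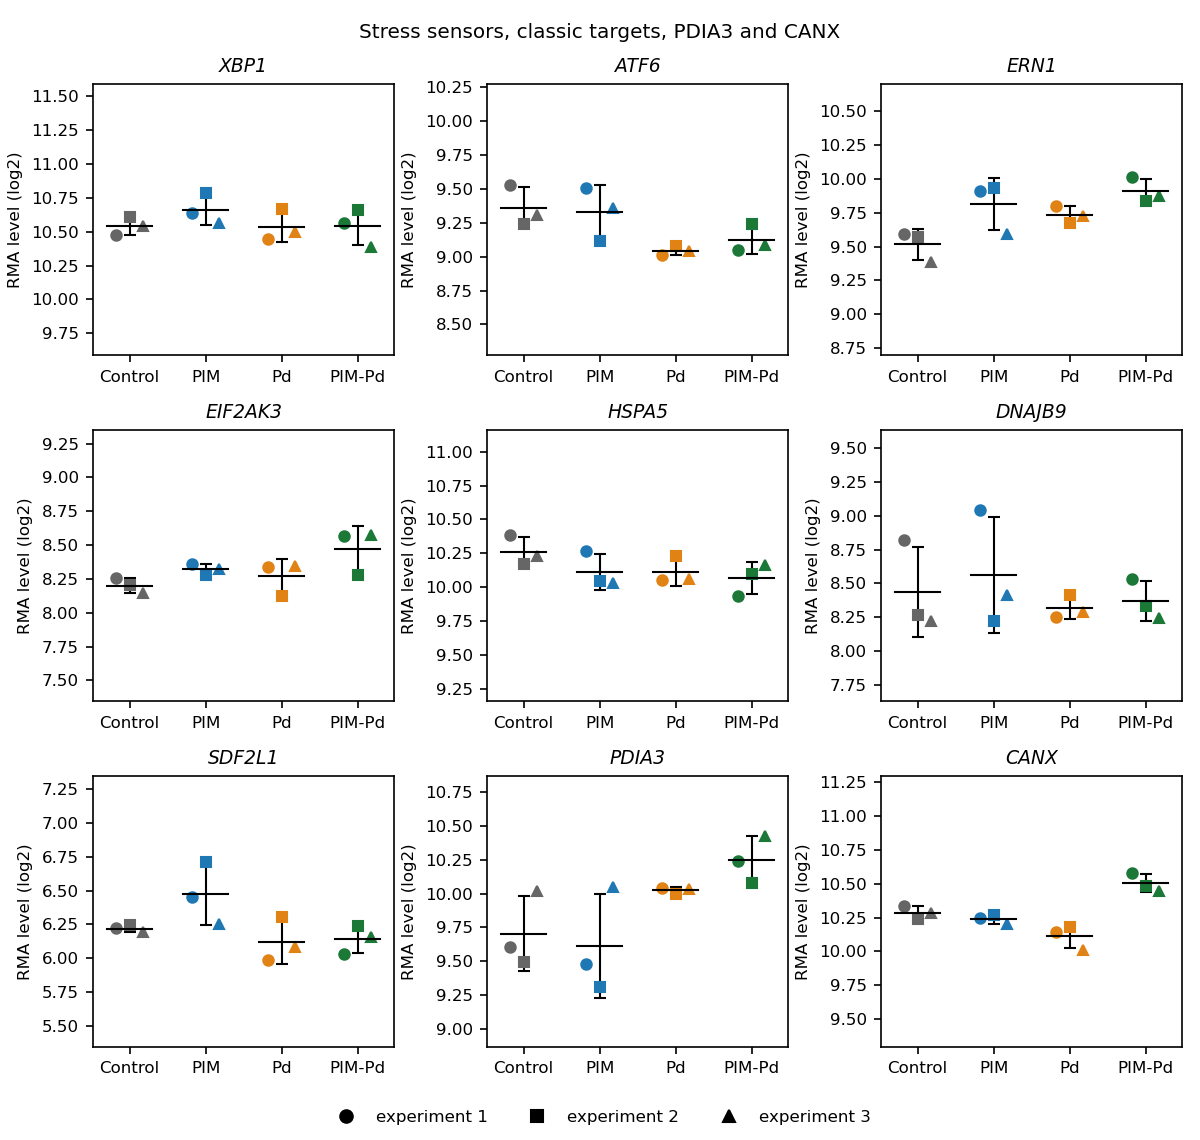
RMA level (log2, y axis) on each array for 4 stress sensors and factors (XBP1, ATF6, ERN1, EIF2AK3), the classic targets HSPA5, DNAJB9 and SDF2L1, and PDIA3 and CANX; x axis, treatment group; marker shape, experiment; bar and whiskers, mean ± SD of 3 arrays. Each panel spans 2 log2 units. XBP1 arrays of all 4 groups overlap, and the Control and PIM arrays of PDIA3 are spread by experiment (SD 0.28 and 0.39).

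The ER chaperones and cochaperones numbered 12, of which 1 fell after Pd and 0 passed after PIM-Pd. In the Pd comparison 11 of the 12 had a negative difference (median -0.16), in the PIM-Pd comparison 9 of 12 (median -0.05). Of all 17710 genes, 9235 had a negative difference after Pd and 8549 after PIM-Pd. HSPA5 encodes BiP, the Hsp70 of the ER that holds the 3 sensors inactive, and is the usual readout of ER stress. The HSPA5 level was 10.38, 10.17 and 10.23 in Control, 10.27, 10.05 and 10.03 in PIM, 10.05, 10.23 and 10.06 in Pd, and 9.93, 10.10 and 10.16 in PIM-Pd. The PIM-Pd arrays lay just below those of Control and the other groups overlapped with it. HSPA5 was not called in any comparison, and the 95% interval of its difference from Control ran from -0.39 to 0.10 for PIM, from -0.39 to 0.10 for Pd and from -0.44 to 0.05 for PIM-Pd. An HSPA5 rise of more than 0.10 log2 units therefore lay outside each of these intervals. DNAJB9, a cochaperone of BiP and a direct XBP1 target, was at 8.82, 8.27 and 8.22 in Control, 9.04, 8.22 and 8.42 in PIM, 8.26, 8.41 and 8.29 in Pd, and 8.53, 8.33 and 8.25 in PIM-Pd. Its groups overlapped, and experiment 1 gave the highest DNAJB9 level in Control, PIM and PIM-Pd. SDF2L1, part of a BiP cochaperone complex, was at 6.22, 6.24 and 6.19 in Control, 6.45, 6.71 and 6.26 in PIM, 5.98, 6.30 and 6.08 in Pd, and 6.04, 6.24 and 6.16 in PIM-Pd. The SDF2L1 level of each PIM array was above each Control array, with a difference of 0.25 ± 0.13 and an adjusted p of 0.807.

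HSP90B1 (ENSG00000166598_at) was the chaperone that fell. It encodes GRP94, the Hsp90 of the ER, which folds integrins, Toll-like receptors and immunoglobulin chains. The HSP90B1 level was 12.09, 11.71 and 11.84 in Control and 11.79, 11.65 and 11.91 in PIM. It was 11.50, 11.40 and 11.28 in Pd, below all other arrays, and 11.76, 12.03 and 11.80 in PIM-Pd, within the range of Control. After Pd it fell by 0.49 ± 0.13 (1.40-fold, adjusted p = 0.0384). This call was lost without Control 1 (adjusted p = 0.183), Control 3 or any Pd array, and when the arrays were quantile normalized again (-0.45, adjusted p = 0.0707). In PIM-Pd the HSP90B1 difference from Control was -0.02 ± 0.13. Its promoter, printed above, holds ERSE at 2 places. Of the 11 genes with ERSE or ERSE-II, 1 rose (HERPUD1) and 1 fell (HSP90B1) after Pd, with a median difference of -0.10, and 1 rose and 0 fell after PIM-Pd, with a median of 0.00. Of the 28 other genes with a promoter, 1 rose and 3 fell after Pd (median -0.12) and 3 rose and 2 fell after PIM-Pd (median -0.02).

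The remaining chaperones differed by less. CALR, the calcium-binding lectin calreticulin, was at 11.94, 12.02 and 11.95 in Control and at 11.65, 11.72 and 11.61 in Pd. The CALR difference of -0.31 ± 0.10 was near equal in the 3 experiments (-0.29, -0.30 and -0.34) and had an adjusted p of 0.0814, or 0.0173 in a fit with an intensity trend and robust variances. For PIM-Pd the CALR difference from Control was -0.23 ± 0.10 (adjusted p = 0.176), also without overlap with the Control arrays. MANF, a secreted ER stress protein, had the lowest value of the 43 genes in PIM against Control, -0.32 ± 0.13 (adjusted p = 0.753). MZB1, which helps to assemble secretory IgM, was at -0.26 ± 0.12 in Pd (adjusted p = 0.290) and at -0.03 ± 0.12 in PIM-Pd.

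Disulfide formation was covered by 7 genes. After PIM-Pd, P4HB rose and TXNDC11 fell, and after Pd, ERO1A fell. P4HB (ENSG00000185624_at) encodes protein disulfide isomerase itself. The P4HB level was 10.63, 10.51 and 10.76 in Control, 10.45, 10.50 and 10.74 in PIM, 10.94, 10.98 and 10.84 in Pd, and 11.13, 11.02 and 11.03 in PIM-Pd. The Pd and PIM-Pd arrays were above all arrays of the other groups. P4HB rose by 0.43 ± 0.11 after PIM-Pd (1.35-fold, adjusted p = 0.0268), while the Pd difference of 0.29 ± 0.11 did not pass (adjusted p = 0.193). The PIM-Pd call was lost without Control 1, Control 2, PIM-Pd 1 or PIM-Pd 3 (adjusted p up to 0.115), with only the compared groups in the fit (0.0501), with arrays centred on their medians (0.0542) and without the 3 arrays of highest median (0.0651).

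TXNDC11 (ENSG00000153066_at) encodes a thioredoxin-domain protein of the ER membrane. The TXNDC11 level was 11.07, 11.04 and 10.99 in Control, 11.10, 11.11 and 11.01 in PIM, 10.71, 10.79 and 10.64 in Pd, and 10.63, 10.67 and 10.68 in PIM-Pd. The arrays with and without pomalidomide and dexamethasone did not overlap. TXNDC11 fell by 0.37 ± 0.10 after PIM-Pd (1.29-fold, adjusted p = 0.0251), and the Pd difference was -0.32 ± 0.10 (adjusted p = 0.0738). Leaving out any of the Control or PIM-Pd arrays ended this call, with adjusted p up to 0.0898, as did a fit of only the compared groups (0.0613) and leaving out the 3 arrays of highest median (0.0706).

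CALR, ERO1A, SEC11C, PDIA3 and CANX are given by array because of their values, outside the rule that chose the other genes. ERO1A encodes the oxidase that recharges protein disulfide isomerase. The ERO1A level was 8.59, 8.33 and 8.65 in Control, 8.57, 8.30 and 8.48 in PIM, 7.90, 8.14 and 7.95 in Pd, and 8.05, 8.08 and 8.30 in PIM-Pd. After Pd it fell by 0.53 ± 0.13 (1.45-fold, adjusted p = 0.0221), a call that was lost without Control 1, Control 3, Pd 1 or Pd 3 (adjusted p up to 0.105). For PIM-Pd the ERO1A difference was -0.38 ± 0.13 (adjusted p = 0.0780), and its paralog ERO1B was at 0.16 in Pd and 0.07 in PIM-Pd, with neither value called. The ERO1B levels were low, with group means from 3.24 to 3.48. The lower quartile of all genes was at least 3.61 on each array. These ERO1B values therefore do not show an expressed gene that stayed unchanged. PDIA3, the isomerase that works with calreticulin and calnexin, was at 9.60, 9.49 and 10.02 in Control, 9.48, 9.31 and 10.05 in PIM, 10.04, 10.00 and 10.04 in Pd, and 10.24, 10.08 and 10.43 in PIM-Pd. Experiment 3 had the highest PDIA3 level in Control, PIM and PIM-Pd. The PDIA3 difference for PIM-Pd was 0.54 ± 0.18 with an adjusted p of 0.0740, and of 0.0162 with the experiment as a block. It was 0.64, 0.58 and 0.41 in the 3 experiments.

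The early steps of the pathway are entry through the translocon and removal of the signal peptide. Of the 7 translocon genes (SEC61A1, SEC61B, SEC61G and SSR1 to SSR4), 0 passed in either comparison with Control, and their differences ran from -0.19 to 0.16 for Pd and from -0.17 to 0.31 for PIM-Pd. Of the 3 signal peptidase genes, SEC11C, a catalytic subunit, fell after Pd. The SEC11C level was 8.44, 8.49 and 8.45 in Control, 8.44, 8.30 and 8.57 in PIM, 7.82, 8.11 and 8.004 in Pd, and 8.35, 8.32 and 8.45 in PIM-Pd. The Pd arrays lay below all others. SEC11C fell by 0.48 ± 0.11 after Pd (1.40-fold, adjusted p = 0.0193) and was at -0.09 ± 0.11 in PIM-Pd. The Pd call was lost without any 1 of the Control arrays, Pd 1 or Pd 3 (adjusted p up to 0.105). SPCS3, a partner subunit, had a Pd difference of -0.44 ± 0.13 with an adjusted p of 0.0573, and SPCS1 a Pd difference of 0.25 ± 0.11 with an adjusted p of 0.264.

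Of the 5 subunits of the oligosaccharyltransferase, which attaches N-linked glycans, DDOST rose after PIM-Pd. The DDOST level was 8.05, 8.13 and 8.06 in Control, 7.90, 8.40 and 8.10 in PIM, 8.45, 8.44 and 8.37 in Pd, and 8.63, 8.45 and 8.52 in PIM-Pd. The PIM-Pd arrays were above all Control and PIM arrays. DDOST rose by 0.46 ± 0.12 after PIM-Pd (1.37-fold, adjusted p = 0.0295), and its Pd difference was 0.34 ± 0.12 (adjusted p = 0.142). The PIM-Pd call was lost without any 1 of the Control arrays, PIM-Pd 1 or PIM-Pd 3 (adjusted p up to 0.1004). RPN1, RPN2, DAD1 and OSTC, the other subunits, had differences between -0.16 and 0.10 for Pd and between -0.02 and 0.13 for PIM-Pd. SEC24D, which selects cargo for the COPII vesicles that leave the ER, was at 0.08 for Pd and -0.09 for PIM-Pd.

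PIM-Pd was next compared with Pd, to ask what PIM447 added, with the reservation that exposure lasted 10 h in one and 15 h in the other. Of the 43 genes, 0 passed, and among all genes 0.0791% did (0.00565% higher and 0.0734% lower). The differences leaned one way: 34 of the 43 were positive, with a median of 0.10, beside a median of 0.00 over all genes. Both this comparison and that of Pd with Control rest on the same 3 Pd arrays, and in the latter 29 of the 43 were negative, with a median of -0.10 beside -0.01 over all genes. The median deviation of the 43 genes from the Control mean was -0.14, -0.06 and -0.14 on the Pd arrays, between -0.04 and 0.05 on the other 9. The number of positive differences between PIM-Pd and Pd ran from 30 to 36 over all settings tried, and was 31 without Pd 3. No p is attached to these counts, since genes of 1 pathway are not independent replicates.

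**Figure D4:**
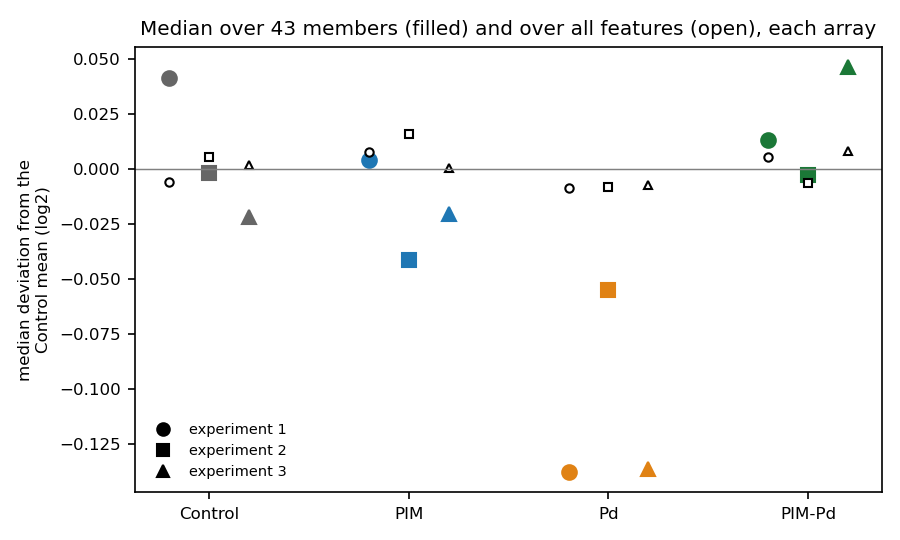
Median deviation from the Control mean (log2, y axis) over the 43 genes (filled) and over all 17710 genes (open) on each of the 12 arrays, by treatment group (x axis); marker shape gives the experiment. The filled points of the 3 Pd arrays lie at -0.14, -0.06 and -0.14, below the 9 other arrays, and all open points lie within 0.02 of 0.

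At an unadjusted p below 0.05, 7 of the 43 genes differed between PIM-Pd and Pd, all of them higher in PIM-Pd: HSP90B1, CANX, SEC11C, PDIA4, SSR2, RPN1 and HYOU1. Among all genes 1518 did so, 692 higher and 826 lower. HSP90B1 had the largest difference, 0.47 ± 0.13 (adjusted p = 0.272). CANX, the membrane lectin calnexin that retains unfolded glycoproteins, was at 10.33, 10.24 and 10.28 in Control, 10.25, 10.27 and 10.20 in PIM, 10.14, 10.18 and 10.01 in Pd, and 10.58, 10.49 and 10.45 in PIM-Pd. The CANX arrays of Pd and PIM-Pd lay on opposite sides of the Control arrays, and their difference of 0.39 ± 0.10 was 0.44, 0.31 and 0.44 in the 3 experiments (adjusted p = 0.206). SEC11C followed with 0.39 ± 0.11 (adjusted p = 0.291) and PDIA4, a disulfide isomerase, with 0.33 ± 0.12 (adjusted p = 0.448). For the 6 genes called after Pd, the 95% interval of the difference between PIM-Pd and Pd was 0.19 to 0.74 for HSP90B1, 0.15 to 0.63 for SEC11C, -0.12 to 0.42 for ERO1A, -0.10 to 0.46 for SEL1L, -0.20 to 0.32 for HERPUD1 and -0.24 to 0.60 for CREB3L2. These intervals are for single genes and are not adjusted for the number of genes. The 6 genes were picked by their Pd arrays, and the same Pd arrays enter these intervals. A return toward Control in PIM-Pd is therefore partly built into the choice.

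A test of the interaction asked whether the difference made by PIM447 was the same with and without Pd. It contains the difference between PIM-Pd and Pd described above. Genes that recur here, such as HSP90B1, CANX, PDIA4 and SEC11C, are therefore not a separate observation. Again 0 of the 43 genes passed, and 0.0169% of all genes did (0.00565% higher and 0.0113% lower). At an unadjusted p below 0.05 stood 1033 of all genes (5.83%, 442 higher and 591 lower) and 5 of the 43: HSP90B1 at 0.56 ± 0.18, CANX at 0.44 ± 0.14, PDIA4 at 0.44 ± 0.17, SEC11C at 0.41 ± 0.16 and SPCS1 at -0.35 ± 0.16, with adjusted p from 0.702 to 0.842. The standard error of an interaction was 0.14 to 0.28 for the 43 genes, against 0.10 to 0.20 for a difference between 2 groups.

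The comparison of PIM-Pd with PIM gave what pomalidomide and dexamethasone added to PIM447, with exposures of 10 h and 24 h. In it 3 genes rose and 2 fell, against 2.95% and 2.71% of all genes (5.66% in either direction). SEL1L fell by 0.86 ± 0.13 (adjusted p = 0.00110) and TXNDC11 fell by 0.41 ± 0.10 (adjusted p = 0.0199). CREB3L2 was higher by 0.75 ± 0.20 (adjusted p = 0.0388), P4HB by 0.50 ± 0.11 (adjusted p = 0.0178) and HERPUD1 by 0.45 ± 0.12 (adjusted p = 0.0442). All 5 differences had the same sign in 3 of 3 experiments. The SEL1L call held whichever array was left out. HERPUD1 lost its call in 9 of the 12 fits with 1 array left out, namely without PIM-Pd 1 (adjusted p = 0.141), Control 2, Control 3, PIM 2, PIM 3, PIM-Pd 3 or any Pd array. CREB3L2 lost it in 7, without PIM 1 (adjusted p = 0.142), Control 3, PIM-Pd 2, PIM-Pd 3 or any Pd array. TXNDC11 lost it in 4, without PIM 1, PIM 2, PIM-Pd 1 or PIM-Pd 3, and P4HB in 3, without PIM 1, PIM 2 or PIM-Pd 1. With only the compared groups in the fit these 4 genes were not called (adjusted p from 0.0824 to 0.153). With the experiment as a block, 4 rose and 3 fell, the additional genes being PDIA3 (0.64, adjusted p = 0.00985) and EDEM1 (-0.49, adjusted p = 0.0378). Without PIM 1, PIM 2 and PIM-Pd 1, the 3 arrays of highest median, 1 PIM and 2 PIM-Pd arrays were left and 0 of the 43 genes passed. The values were then -0.67 for SEL1L (adjusted p = 0.115), 0.64 for CREB3L2, 0.48 for HERPUD1, -0.34 for TXNDC11 and 0.28 for P4HB. This fit assumes that the lone PIM array varied like the other groups.

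After PIM447 alone the differences of the 43 genes from Control had a narrower range than after Pd or PIM-Pd. They ran from -0.32 (MANF) to 0.29 (ERN1), with a median of -0.03 beside 0.01 over all genes. The median after PIM-Pd was nearer to 0, at -0.003. For PIM447 alone the 95% intervals of all 43 lay between -0.59 and 0.64. A 2-fold change in any of these genes was thus outside its own interval, at 24 h of 100 nM PIM447 and with n = 3 arrays per group. The same held for 41 of the 43 genes after Pd, the exceptions being SEL1L and CREB3L2, and for 42 after PIM-Pd, where the exception was CREB3L2.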

How the data were processed

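RNA from 12 MM.1S cultures was measured on Clariom S human arrays. The authors deposited RMA values on the log2 scale, made with oligo 1.44.0 in R 3.5.0 and a custom gene definition (BrainArray, Ensembl identifiers); replicates were not pooled. Groups came from the labels. All 17710 genes were fitted with limma 3.58.1 in R 4.3.3 (lmFit, eBayes; 4 groups, 12 arrays), after a test on simulated data, and p-values were Benjamini-Hochberg adjusted over all of them. The SAM procedure of the authors' methods was not run; their 2-fold criterion is an alternative. The number of arrays limits the precision. The labels number the replicates and do not say that arrays of the same number shared an experiment, which was assumed here. Residuals of same-numbered arrays correlated at a median of 0.10 (18 pairs, -0.10 to 0.30). Those of differently numbered arrays correlated at a median of -0.04 (36 pairs). The block by experiment changed 4 calls, given beside each. Per-array values were given by rule for the sensors and factors, for HSPA5, HSP90B1, DNAJB9, HERPUD1 and SDF2L1, and for the genes with the largest change among those called in PIM-Pd against Control. The 45 genes and the lists were chosen with earlier results of these data known. Other pathway genes and cell type markers were listed but not analysed here, since no table used here paired their names with the array's identifiers. Alternatives were the block, the groups in the fit, a filter on low levels, median centring, renewed quantile normalization, an intensity trend with robust variances, the fold criterion and each array left out. Leaving out the 3 arrays of highest median was added after seeing the data.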

Additional observations from a re-analysis of the deposited data

How the results depend on the processing

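Over the alternatives, 4746 of 4853 values of single genes stayed on their side of the threshold, 77 lost a call and 30 gained one. Among the 4746 the sign turned in 240, none of them called in either fit, and 0 called values changed sign. With the replicate block, 6 genes rose and 2 fell in PIM-Pd against Control, adding ERN1 and PDIA3, and 4 rose and 3 fell in PIM-Pd against PIM, adding PDIA3 and EDEM1; it changed no other call. Requiring a 2-fold change left 0 genes higher and 0 lower after Pd, after PIM-Pd and in PIM-Pd against PIM. An intensity trend with robust variances gave 7 lower genes after Pd, adding CALR, TXNDC11 and SPCS3. With only the compared groups in the fit, 1 gene fell in PIM-Pd against Control, and 0 rose and 1 fell in PIM-Pd against PIM. Without the 3 arrays of highest median, 0 rose and 0 fell in PIM-Pd against PIM. Leaving out 1 array at a time gave 0 to 2 higher and 1 to 5 lower genes after Pd, 2 to 6 higher and 1 to 2 lower after PIM-Pd, and 1 to 3 higher and 1 to 3 lower in PIM-Pd against PIM, and 0 in the other comparisons. The causes of these changes were not tested. The genes called in all alternatives other than the fold criterion were SEL1L after Pd and SEL1L, HERPUD1 and CREB3L2 after PIM-Pd.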
